A study of Mus musculus with 12 samples.

Results

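TCRBV01-01 is the V gene that lies farthest upstream in the mouse TCRβ locus, apart from the cluster of the other V genes. Its rearrangements were taken as all rows that name it as the V gene in any of the 12 libraries, which gave 13700 of 288925 rearrangements (4.74%) and 1 of 35 V genes named. Of these, 9835 of the 205925 productive (in-frame) rearrangements, 3813 of the 79915 out-of-frame rearrangements and 52 of the 3085 with a stop codon carried TCRBV01-01. The gene symbol is Trbv1, with the older name Tcrb-V2, and it spans bases 40891296 to 40891885 of chromosome 6 in GRCm38/mm10 (590 bases, RefSeq).

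The libraries hold rearranged TCRβ genes amplified from genomic DNA of CD8+ T cells of MC38 tumor-bearing C57BL/6 mice, where MC38 is a colon adenocarcinoma line. All groups, including those used here as the reference, came from mice given both anti-CTLA-4 and anti-PD-L1 antibody, so no untreated group was compared. The 4 groups are CD27lo CX3CR1-, CD27hi CX3CR1- and CX3CR1+ splenic CD8+ T cells, sorted by flow cytometry, and CD8+ tumor-infiltrating lymphocytes (TILs), isolated by positive selection on CD8a. Every group was sampled once per experiment, and the 3 experiments are called A, B and C here. The sample labels write CX3CR1lo and CX3CR1hi for CX3CR1- and CX3CR1+, and each library was taken to hold cells pooled from the mice of 1 experiment. A row is 1 unique nucleotide rearrangement with its number of templates. The libraries held 1359 to 54639 unique productive rearrangements and 5893 to 113660 productive templates, with TILs the shallowest.

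A TCRβ gene is assembled in the thymus by joining 1 V, 1 D and 1 J gene, with bases trimmed from the gene ends and untemplated bases added at the junctions. The junction codes for CDR3, the loop of the receptor that contacts the peptide. A T cell can carry an out-of-frame rearrangement on its other chromosome, which makes no receptor and is carried along with the cell. The number of unique rearrangements counts joining events that were seen, whereas a template stands for 1 gene copy in the DNA, so a clone that has divided adds templates and no unique rearrangement. The deposited count is headed as templates or reads, without saying which of them it holds, and was read as templates here. If it holds reads, the template shares and their intervals would be of reads.

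The end of TCRBV01-01 is shown first because every CDR3 described here starts with what trimming left of it. No base was trimmed in 30.9% of productive TCRBV01-01 rearrangements (mean of 12 libraries), so most CDR3s start with only part of it. In 3070 of the 3131 productive rearrangements with no base trimmed from the V gene and a read long enough to test, the same 53 bases were present. Capitals mark the 17 bases that lie inside the CDR3.
TCRBV01-01 end: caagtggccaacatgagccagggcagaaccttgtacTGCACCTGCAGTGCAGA

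The next 5 sequences are the most abundant productive TCRBV01-01 rearrangement of each CX3CR1+ and TIL library, since the share of templates described further on turned on them. CX3CR1+ and TIL of experiment C had the same rearrangement. Each read is 87 bases long, and capitals mark the CDR3 without its last codon, where the read ends.
CX3CR1+ A: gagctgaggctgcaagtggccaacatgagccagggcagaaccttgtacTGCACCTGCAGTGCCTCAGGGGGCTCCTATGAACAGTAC
CX3CR1+ B: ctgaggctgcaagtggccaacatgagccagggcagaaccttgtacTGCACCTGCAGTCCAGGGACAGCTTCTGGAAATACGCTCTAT
CX3CR1+ C and TIL C: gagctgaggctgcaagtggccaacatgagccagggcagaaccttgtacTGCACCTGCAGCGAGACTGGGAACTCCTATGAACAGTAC
TIL A: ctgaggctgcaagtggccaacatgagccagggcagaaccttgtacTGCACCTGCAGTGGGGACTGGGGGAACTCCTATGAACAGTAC
TIL B: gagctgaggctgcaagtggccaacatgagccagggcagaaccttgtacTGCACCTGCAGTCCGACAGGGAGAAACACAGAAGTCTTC

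The last 4 are the productive TCRBV01-01 rearrangements found in the most libraries, shown because the same DNA junction recurred in separate experiments. Capitals again mark the CDR3.
Recurrent 1: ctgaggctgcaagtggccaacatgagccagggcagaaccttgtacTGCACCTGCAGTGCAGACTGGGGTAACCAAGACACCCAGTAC
Recurrent 2: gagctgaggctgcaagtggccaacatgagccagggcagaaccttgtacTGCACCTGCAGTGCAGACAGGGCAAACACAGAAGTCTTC
Recurrent 3: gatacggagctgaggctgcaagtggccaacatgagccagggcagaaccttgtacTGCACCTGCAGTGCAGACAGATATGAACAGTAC
Recurrent 4: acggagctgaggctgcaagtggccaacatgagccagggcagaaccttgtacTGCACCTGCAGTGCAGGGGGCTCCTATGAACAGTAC

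TCRBV01-01 made up 4.56% to 5.67% of unique productive rearrangements over the 12 libraries. The share was 4.98%, 5.11% and 4.93% in CD27lo CX3CR1- cells of experiments A, B and C. It was 4.69%, 4.56% and 4.80% in CD27hi CX3CR1- cells, and 4.59%, 4.69% and 4.86% in CX3CR1+ cells. In TILs it was 5.67%, 5.29% and 4.83%. The order of the means was TIL at 5.26% ± 0.418, CD27lo CX3CR1- at 5.01% ± 0.0954, CX3CR1+ at 4.71% ± 0.141 and CD27hi CX3CR1- at 4.68% ± 0.121 (SD, n = 3 each). TIL overlapped with CD27lo CX3CR1- and with CX3CR1+, and CX3CR1+ overlapped with CD27hi CX3CR1-, while the 3 CD27lo CX3CR1- values lay above all those of CX3CR1+ and CD27hi CX3CR1-. The gene ranked 10th to 11th among the 22 V genes with at least 500 productive rearrangements in each group.

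The test over all V genes (edgeR's quasi-likelihood test with the experiment as a block, Benjamini-Hochberg adjustment) called no difference for TCRBV01-01. CX3CR1+ minus the mean of both CX3CR1- subsets was -0.04 ± 0.05 (log2, SE; 95% interval -0.14 to 0.07; adjusted p = 0.768), where 4.55% of the 22 V genes tested were called. TIL minus CX3CR1- was 0.10 ± 0.10 (-0.11 to 0.31; adjusted p = 0.488), with 13.6% of V genes called. TIL minus CX3CR1+ was 0.13 ± 0.11 (-0.09 to 0.36; adjusted p = 0.513), with 9.09% called. CD27lo minus CD27hi CX3CR1- was 0.09 ± 0.04 (0.0020 to 0.18; edgeR adjusted p = 0.409, unadjusted p = 0.0456). CD27lo was higher in all 3 experiments. For that contrast edgeR called 0 V genes (0%), with 2 at an unadjusted p under 0.05, and DESeq2 called 0 as well. TIL libraries held 77, 82 and 105 productive TCRBV01-01 rearrangements, and the intervals that include them are the widest. TIL minus CX3CR1- was 0.047 without TIL A and 0.19 without TIL C, and TIL minus CX3CR1+ was 0.067 without experiment A and 0.24 without experiment C, all with edgeR adjusted p above 0.05.

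**Figure D1:**
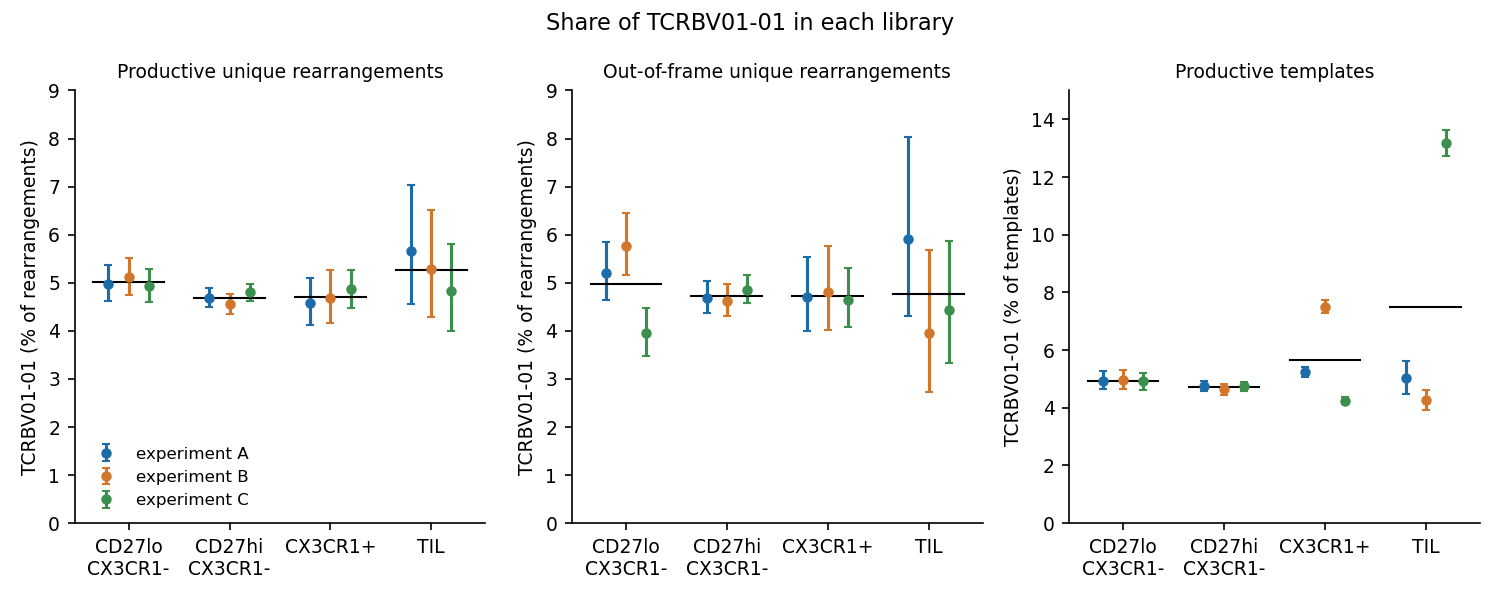
TCRBV01-01 as a percent of unique productive rearrangements, unique out-of-frame rearrangements and productive templates in each library (points, coloured by experiment; bars are 95% Wilson intervals of counting error, black lines the mean of 3 libraries). The first panel stays between 4.56% and 5.67%, while the template share of TIL C reaches 13.2%.

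Out-of-frame rearrangements give the use of the gene in joins that code for no receptor. The share of TCRBV01-01 among unique out-of-frame rearrangements was 5.21%, 5.77% and 3.95% in CD27lo CX3CR1- cells, and 4.69%, 4.63% and 4.86% in CD27hi CX3CR1- cells. It was 4.71%, 4.82% and 4.65% in CX3CR1+ cells and 5.90%, 3.95% and 4.44% in TILs. CD27lo CX3CR1- of experiment C stood below the other libraries of its group, with a 95% Wilson interval of 3.48% to 4.47% against 4.64% to 5.85% in A. The group means lay within 4.72% to 4.98%, closer together than the libraries of CD27lo CX3CR1- or of TIL. Group differences ranged from -0.04 ± 0.14 (TIL minus CX3CR1-) to 0.05 ± 0.07 (CD27lo minus CD27hi; log2, SE), and all 4 had adjusted p of 0.863 or more. In each of the 4 contrasts edgeR called 0% of the 23 V genes tested, with 0 to 3 at an unadjusted p under 0.05, and DESeq2 called 0. Without experiment C the CD27lo minus CD27hi difference was 0.23 ± 0.07 (adjusted p = 0.0341).

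Setting the frames against each other in the same libraries placed TCRBV01-01 in the middle of the V genes tested. Its share among productive rearrangements was not called as different from that among out-of-frame rearrangements, with a log2 ratio of 0.02 ± 0.04 (SE; 95% interval -0.07 to 0.11; adjusted p = 0.70). The same test called 85.7% of the 21 V genes tested, 10 with a larger and 8 with a smaller productive share. The ratios of the called genes ran from -2.47 ± 0.05 for TCRBV24-01 to 0.93 ± 0.05 for TCRBV14-01. The other two genes that were not called were TCRBV17-01, at -0.08 ± 0.06, and TCRBV23-01, at -0.15 ± 0.10. Among the rows of either frame, 72.1% of those with TCRBV01-01 were in frame, rank 11 of 22 V genes, between 31.3% for TCRBV24-01 and 83.4% for TCRBV14-01. Stop codons were found in 0.38% of TCRBV01-01 rearrangements, rank 18 of 22.

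The ratio of productive to out-of-frame share was not called as different between the groups either. The difference in log2 ratio between CX3CR1+ cells with TILs and the CX3CR1- subsets was 0.04 ± 0.09 (95% interval -0.14 to 0.22; adjusted p = 0.766). This contrast called 0% of 21 V genes in edgeR, with 5 at an unadjusted p under 0.05, and 0 in DESeq2.

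**Figure D2:**
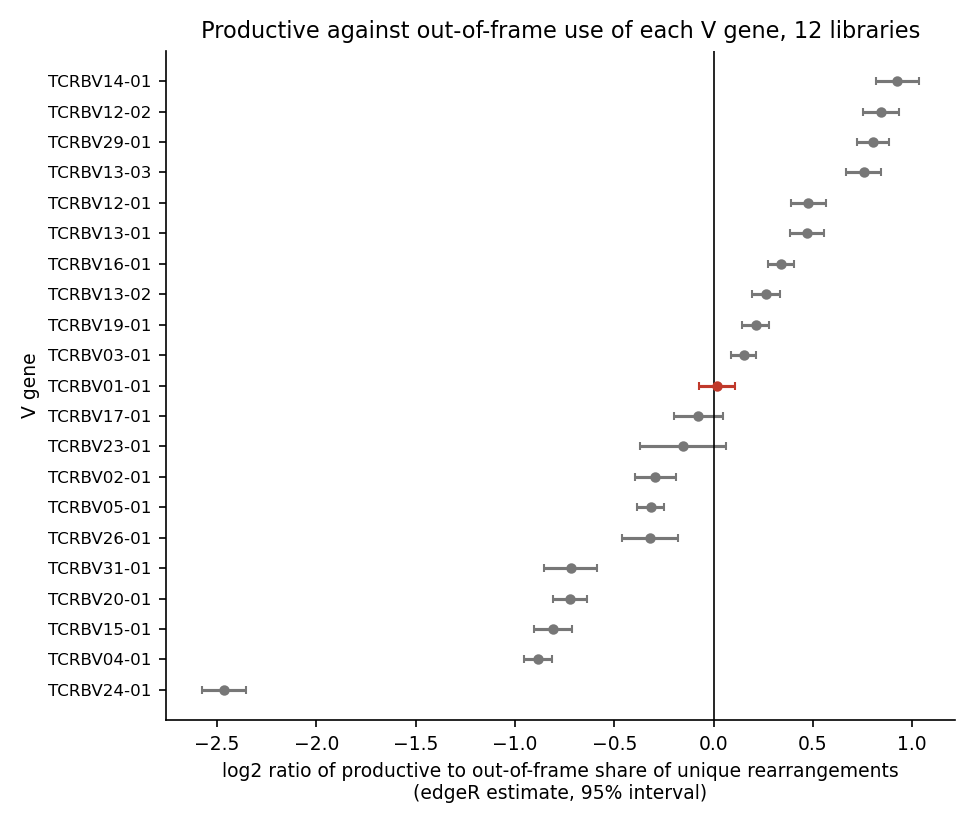
Log2 ratio of the productive to the out-of-frame share of unique rearrangements for each of 21 V genes, averaged over the 12 libraries (points are edgeR estimates, bars 95% intervals, TCRBV01-01 in red). TCRBV01-01 sits at 0.02, between 10 genes above and 10 below it.

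The J genes joined to TCRBV01-01 differed from those joined to the other V genes. The mouse locus has a J1 cluster upstream of a J2 cluster, each behind its own D gene. J1 genes made up 39.6% ± 4.24 of productive TCRBV01-01 rearrangements and 34.0% ± 1.18 of those with other V genes (SD, n = 12 libraries). TCRBV01-01 was the higher of the pair in 12 of 12 libraries, by 0.271 percentage points in CX3CR1+ C and up to 19.4 in TIL B. Among out-of-frame rearrangements the J1 share was 46.9% ± 5.73 against 35.1% ± 3.41, again higher in 12 of 12 libraries.

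TCRBJ01-06 showed the largest difference. It was joined to 3.06% (lowest), 4.76% (median) and 11.0% (highest) of productive TCRBV01-01 rearrangements over the 12 libraries, and to 1.98%, 2.74% and 3.75% of those with other V genes. In 12 of 12 libraries its share was higher with TCRBV01-01, and the log2 difference was 0.79 ± 0.08 (SE; adjusted p = 7.23e-17 in edgeR with the library as a block). The J gene tests take the 12 libraries as replicates, although libraries of 1 experiment are not independent. TCRBJ01-04 was higher by 0.31 ± 0.05 (adjusted p = 7.02e-07), with a median share of 8.26% against 6.77%. Its share was higher with TCRBV01-01 in 8 of 12 libraries, and in TILs the mean was slightly lower (6.38% against 6.49%). TCRBJ01-02 went the other way and was lower by -0.32 ± 0.06 (adjusted p = 3.33e-06), with a median share of 5.47% against 6.78%. The 2 of 12 libraries where it was higher with TCRBV01-01 were TIL B and TIL C, and its TIL mean was 6.39% against 5.85%.

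Of the 11 J genes tested, 90.9% were called, so a call on its own does not set a J gene apart. Those called higher were TCRBJ01-01, TCRBJ01-03, TCRBJ01-04 and TCRBJ01-06, and those called lower were TCRBJ01-02 and all the tested J2 genes except TCRBJ02-03, at 0.10 ± 0.05 (adjusted p = 0.0781). The lower calls among J2 genes ran from -0.11 ± 0.05 for TCRBJ02-01 to -0.25 ± 0.05 for TCRBJ02-05. The test gave 1 value over all groups. In CX3CR1+ cells the mean shares were higher with TCRBV01-01 for TCRBJ02-01 (14.2% against 13.6%) and TCRBJ02-02 (6.28% against 5.66%). These genes were higher with TCRBV01-01 in 2 and 5 of 12 libraries. TCRBJ02-04, TCRBJ02-05 and TCRBJ02-07 were lower in CX3CR1+ cells. TCRBJ01-05 had too few TIL rearrangements for the minimum of 10 a group, and its mean share was 4.31% ± 1.31 against 3.57% ± 0.358. TCRBJ01-07 and TCRBJ02-06 were joined to 0 productive TCRBV01-01 rearrangements. With DESeq2, 7 of the 11 were called.

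In out-of-frame rearrangements TCRBJ01-02 turned direction. Its median share there was 9.41% with TCRBV01-01 and 7.30% with the other V genes, higher in 11 of 12 libraries, and the log2 difference was 0.34 ± 0.08 (adjusted p = 1.12e-04). TCRBJ01-06 had an out-of-frame median of 4.26% against 3.90%, higher in 9 of 12 libraries, and could not be tested there because TILs held too few.

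**Figure D3:**
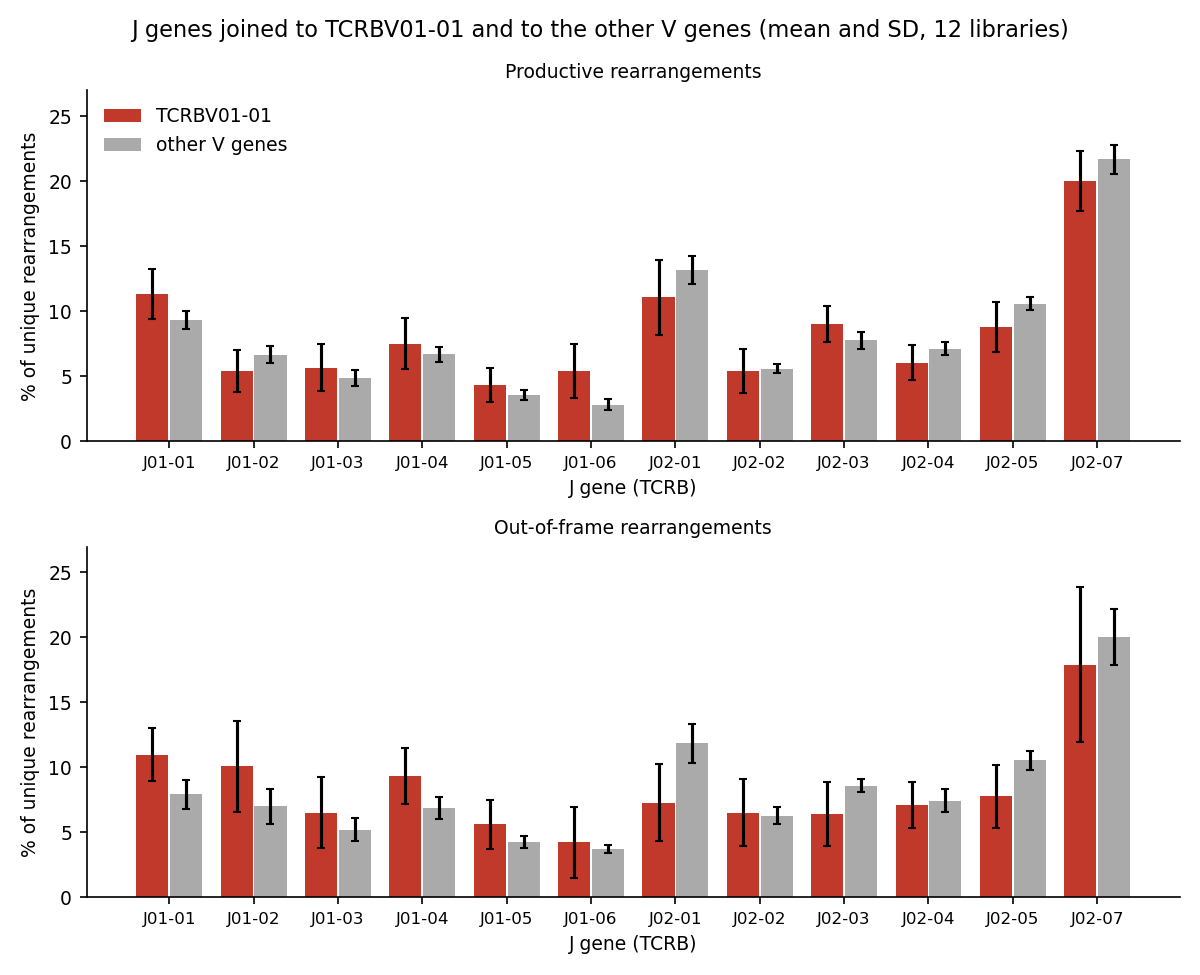
Percent of unique rearrangements joined to each J gene, for TCRBV01-01 (red) and for all other V genes (grey), in productive and in out-of-frame rearrangements (bars are means of 12 libraries, error bars SD). TCRBJ01-06 stands at 5.40% against 2.81% in productive rearrangements, and TCRBJ01-02 changes sides between the frames.

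CDR3s that start with TCRBV01-01 were about 1 base longer than the rest. Their mean length over unique productive rearrangements was 43.0, 42.8 and 43.1 nt in CD27lo CX3CR1- cells and 42.9, 42.9 and 42.8 nt in CD27hi CX3CR1- cells. It was 43.0, 43.0 and 42.6 nt in CX3CR1+ cells and 42.9, 42.6 and 42.7 nt in TILs. With other V genes it lay between 41.7 and 41.9 nt in all 12 libraries. The difference averaged 1.08 nt ± 0.106 (SD over 3 experiments) and was positive in 12 of 12 libraries. The exact two-sided sign-flip test over 3 experiments gave p = 0.25, the smallest it can give. In out-of-frame rearrangements the difference was 1.55 nt ± 0.892 (SD, n = 12), also positive in 12 of 12. Over the 22 V genes, TCRBV01-01 ranked 3rd in mean CDR3 length, after TCRBV02-01 and TCRBV05-01. CX3CR1+ cells and TILs differed from the CX3CR1- subsets by -0.154 nt ± 0.164 (SD over 3 experiments; exact permutation of groups within experiments, two-sided p = 0.157).

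The V gene end was trimmed less than the pooled ends of the other V genes, although 7 of the 22 V genes were trimmed less still, TCRBV05-01 and TCRBV31-01 among them (mean 1.99 and 1.86 bases against 2.04). TCRBV01-01 lost 2.10 ± 0.114 bases on average and the other V genes 2.69 ± 0.0374 (SD, n = 12 libraries), lower in 12 of 12 libraries. No base was trimmed in 30.9% ± 3.83 of productive TCRBV01-01 rearrangements and in 22.6% ± 0.731 of the rest. The deposited numbers of trimmed bases, which are assigned from the read, had gaps of their own. In CD27hi CX3CR1- cells, the deepest libraries for this gene, 19.1% ± 0.171 were scored as losing 3 bases and 6.30% ± 0.743 as losing 2 (SD, n = 3). Whether the trimming itself has these gaps was not tested. The other V genes had 12.0% ± 0.190 and 15.7% ± 0.0228 in the same cells. Inserted bases numbered 3.19 ± 0.10 against 3.49 ± 0.0487, lower in 12 of 12 libraries, while in out-of-frame rearrangements they were lower in 5 of 12. Mean trimming of TCRBV01-01 was 2.00 and 2.03 bases in CD27lo and CD27hi CX3CR1- cells, 2.12 in CX3CR1+ cells and 2.22 in TILs. All 6 CX3CR1+ and TIL libraries lay above all 6 CX3CR1- libraries, which was noticed in the data and not tested. The group means of the other V genes had the same order, at 2.64, 2.68, 2.70 and 2.73 bases.

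**Figure D4:**
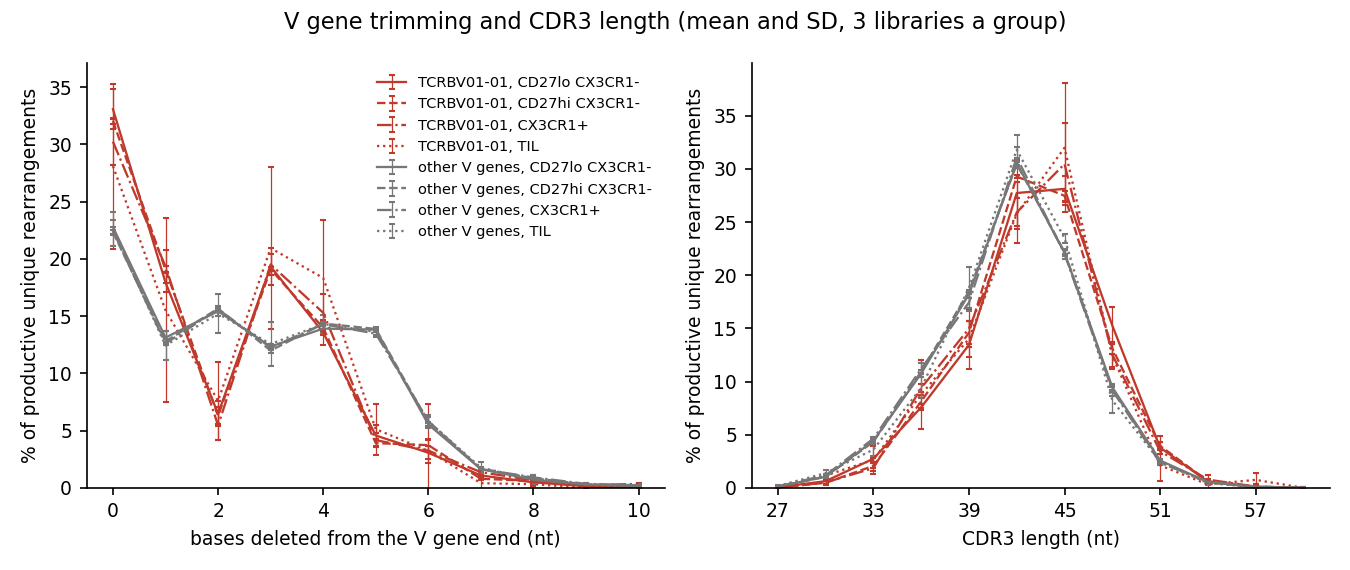
Percent of productive unique rearrangements by bases deleted from the V gene end (left) and by CDR3 length in nt (right), for TCRBV01-01 (red) and other V genes (grey) in the 4 groups (line styles; mean and SD of 3 libraries). TCRBV01-01 peaks at 0 and at 3 deleted bases, and its length curve is shifted to the right.

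Templates behaved differently from unique rearrangements. The share of productive templates with TCRBV01-01 was 4.94%, 4.97% and 4.91% in CD27lo CX3CR1- cells and 4.75%, 4.64% and 4.74% in CD27hi CX3CR1- cells. It was 5.24%, 7.50% and 4.25% in CX3CR1+ cells and 5.02%, 4.26% and 13.2% in TILs. CX3CR1+ B and TIL C stood above every other library, and CX3CR1+ C and TIL B below every CX3CR1- library. The means were 7.49% ± 4.94 in TILs, 5.66% ± 1.67 in CX3CR1+ cells, 4.94% ± 0.0300 in CD27lo CX3CR1- cells and 4.71% ± 0.0614 in CD27hi CX3CR1- cells (SD, n = 3), and TIL and CX3CR1+ overlapped with all groups.

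No group difference in template share was called. TIL minus CX3CR1- was 0.57 ± 0.33 (log2, SE; 95% interval -0.11 to 1.24; adjusted p = 0.220), in a contrast that called 16.7% of 24 V genes. CX3CR1+ minus CX3CR1- was 0.25 ± 0.32 (-0.42 to 0.91; adjusted p = 0.495). There edgeR called 0% of V genes, with 5 at an unadjusted p under 0.05, and DESeq2 called 4. TIL minus CX3CR1+ was 0.32 ± 0.39 (-0.48 to 1.12; adjusted p = 0.627), with 4.17% called. CD27lo minus CD27hi CX3CR1- was 0.07 ± 0.38 (-0.70 to 0.84; adjusted p = 0.995), with 0% called, 0 at an unadjusted p under 0.05 and 0 in DESeq2.

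These values depended on the scaling and on which rearrangements were counted. CX3CR1+ minus CX3CR1- was 0.61 with DESeq2's size factors, 0.53 with TMM factors and 0.061 with non-productive rearrangements included. TIL minus CX3CR1- was 0.95, 0.76 and 0.39, and none of the 6 values was called.

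The direction in TILs rested on 1 library. Without TIL C the TIL minus CX3CR1- difference was -0.12 ± 0.26 (adjusted p = 0.802), and without experiment C it was -0.05 ± 0.36 (adjusted p = 0.879). To show how much of the share was 1 clone, the largest TCRBV01-01 clone was left out of each library. The share was then 2.66%, 3.47% and 3.55% in TILs A, B and C and 3.82%, 4.75% and 3.53% in CX3CR1+ cells. It lay between 4.62% and 4.94% in the 6 CX3CR1- libraries. Where a clone holds a large part of the templates this removal lowers the share by construction, and the other V genes kept their largest clones, so these values are a description and no comparison between groups. Out-of-frame templates with TCRBV01-01 also varied in the expanded groups, at 3.19%, 6.38% and 1.32% in CX3CR1+ cells and 3.90%, 5.10% and 1.35% in TILs, against 3.98% to 5.94% in the CX3CR1- libraries.

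TCRBV01-01 templates were concentrated in a few clones in CX3CR1+ cells and TILs, as were those of the other V genes. The chance that a pair of TCRBV01-01 templates drawn at random carried the same rearrangement (Simpson's index, without replacement) was 0.107, 0.185 and 0.0603 in CX3CR1+ cells and 0.241, 0.0717 and 0.587 in TILs. It was 0.000784 to 0.000895 in CD27lo and 0.000159 to 0.000274 in CD27hi CX3CR1- cells. The 6 values of CX3CR1+ cells and TILs all lay above the 6 of the CX3CR1- subsets, by 0.208 ± 0.102 on average (SD over 3 experiments; exact permutation of groups within experiments, two-sided p = 0.00926, the smallest possible), and by 0.0849 without the largest clone of each library. Over the other V genes pooled, the index was 0.00764 to 0.0398 in CX3CR1+ cells, 0.0114 to 0.0329 in TILs and at most 0.000145 in CX3CR1- libraries. The pooled index covers many genes, so its level cannot be set against that of 1 gene. The 10 largest clones held 59.8% to 77.6% of TCRBV01-01 templates in CX3CR1+ libraries, 71.0% to 93.4% in TILs and at most 6.78% in the CX3CR1- libraries.

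Clones with at least 0.1% of the productive templates of their library, and at least 3 templates, were counted as expanded. TCRBV01-01 had 10, 11 and 8 such clones in CX3CR1+ cells of A, B and C and 5, 11 and 5 in TILs, and 0 in each of the 6 CX3CR1- libraries, where 0 to 8 clones of any V gene were expanded. Expanded TCRBV01-01 clones held 3.68%, 5.92% and 2.37% of productive templates in CX3CR1+ cells and 3.19%, 3.19% and 12.0% in TILs. The difference from the CX3CR1- subsets was 5.05 percentage points ± 1.92 (SD over 3 experiments; exact permutation, two-sided p = 0.00926, the smallest possible). Expanded clones of any V gene numbered 126 to 144 in CX3CR1+ libraries and 115 to 131 in TIL libraries. The same test was not run for other V genes, so it does not set TCRBV01-01 apart. TCRBV01-01 accounted for 6.99%, 8.73% and 5.56% of all expanded clones in CX3CR1+ cells and 4.35%, 8.59% and 3.82% in TILs, on either side of its share of unique rearrangements in TILs and above it in CX3CR1+ cells. With expanded clones taken from 0.05% the shares were 4.74%, 7.30% and 4.59% in CX3CR1+ cells, the last below its unique share of 4.86%, and 4.76%, 6.95% and 5.09% in TILs.

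**Figure D5:**
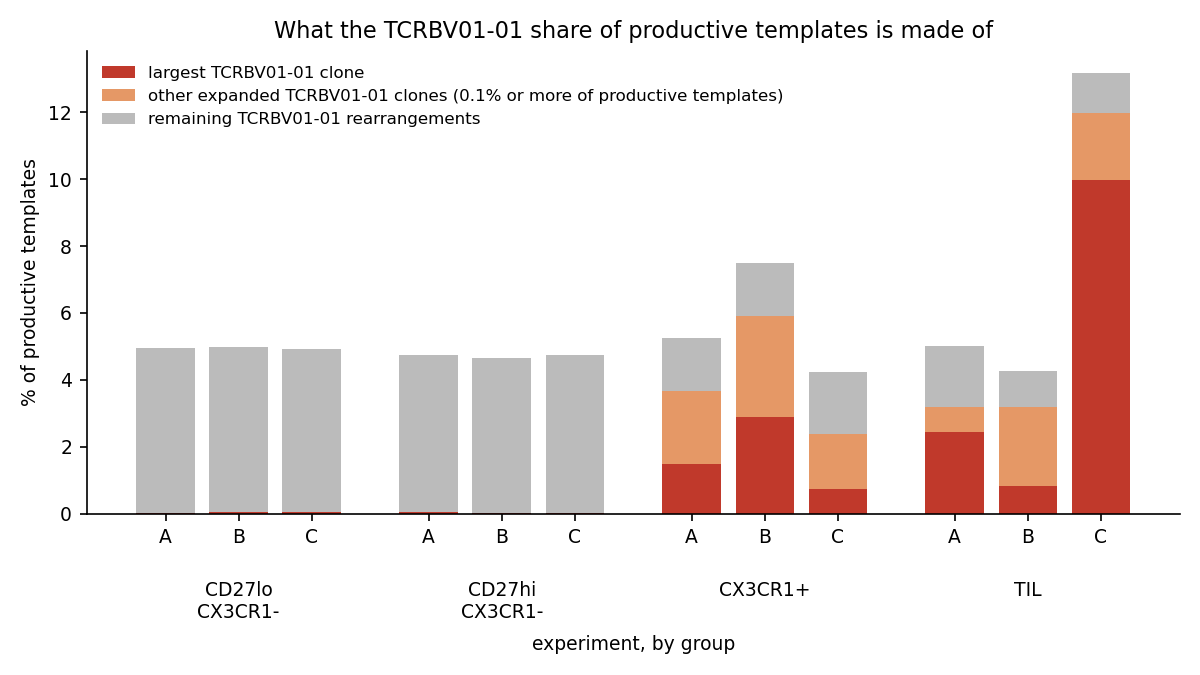
TCRBV01-01 as a percent of productive templates in each library, divided into its largest clone (red), its other expanded clones (orange) and all its remaining rearrangements (grey). The grey part fills the bars of the 6 CX3CR1- libraries, and the largest clone of TIL C alone reaches 9.98%.

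The largest clone differed between experiments. In TIL C the TCRBJ02-07 clone printed above held 2091 templates, 9.98% of productive templates (95% Wilson interval 9.58% to 10.4%) and 75.7% of TCRBV01-01 templates, and was rank 1 of its library. The same junction was the largest TCRBV01-01 clone of CX3CR1+ C, with 848 templates (0.746%, 0.698% to 0.798%). It had 2 templates in CD27lo and 3 in CD27hi CX3CR1- cells of that experiment and 0 in the libraries of A and B. It lost 6 bases of the V gene and gained 5 inserted bases.

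In experiment B the largest CX3CR1+ clone, joined to TCRBJ01-03, had 1475 templates (2.89%, 2.75% to 3.04%) and rank 3. It had 18 templates in TIL B (0.145%), 3 in CD27lo and 12 in CD27hi CX3CR1- cells. The largest TIL B clone, joined to TCRBJ01-01, had 102 templates (0.823%, 0.679% to 0.999%) and rank 24. It had 178 templates in CX3CR1+ B (0.349%), 7 in CD27lo and 2 in CD27hi CX3CR1- cells. Both clones were thus seen in all 4 groups of experiment B and in no library of A or C. The paper gives the purity of the sorted cells as high but not complete. The few templates of these clones in CX3CR1- libraries, as for those of experiments A and C, cannot be told from CX3CR1+ cells carried over in sorting.

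In experiment A the largest CX3CR1+ clone, joined to TCRBJ02-07, had 824 templates (1.48%, 1.38% to 1.58%) and rank 9. It had 19 templates in CD27hi CX3CR1- cells and 0 in TIL A, where a count of 0 allows up to 0.0509%. The largest TIL A clone, also joined to TCRBJ02-07, had 143 templates (2.43%, 2.06% to 2.85%) and rank 7, with 120 in CX3CR1+ A (0.215%), 5 in CD27lo and 0 in CD27hi CX3CR1- cells. These clones were picked as the largest of their library, so their level there is a description. Of the 5 distinct clones, 4 were found in both the CX3CR1+ and the TIL library of their experiment.

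By templates, sharing between TILs and CX3CR1+ cells differed between TCRBV01-01 and the other V genes by less than the spread between experiments. By unique nucleotide rearrangements it was slightly higher for TCRBV01-01 in all 3 experiments. By unique amino acid CDR3 it was lower in A (21.3% against 21.8%) and higher in B (43.2% against 39.6%) and C (51.0% against 48.9%). In TILs of A, B and C, 66.9%, 73.1% and 95.8% of TCRBV01-01 templates belonged to a nucleotide rearrangement also found in CX3CR1+ cells of the same experiment. For the other V genes it was 63.8%, 86.2% and 84.2%. The difference was 0.559 percentage points ± 12.5 (SD over 3 experiments), positive in A and C and negative in B (exact sign-flip test, two-sided p = 1.0; the smallest possible is 0.25). By unique rearrangements, 20.8%, 41.5% and 50.5% of the TCRBV01-01 rearrangements of TILs were found in CX3CR1+ cells, against 20.3%, 37.9% and 46.2% for the other V genes. The difference was 2.78 points ± 2.00 (SD over 3 experiments; exact sign-flip test, two-sided p = 0.25, the smallest possible). The TCRBV01-01 values were 11.7%, 8.54% and 10.5% in CD27lo CX3CR1- and 7.79%, 15.9% and 15.2% in CD27hi CX3CR1- cells. Libraries differ in depth, and CX3CR1+ libraries held 262 to 557 productive TCRBV01-01 rearrangements against 1733 to 2623 in CD27hi CX3CR1- libraries.

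The recurrent rearrangements were mostly small and little edited. Recurrent 1, joined to TCRBJ02-05, was found in 7 libraries of experiments B and C, with 161 templates in CX3CR1+ B, 41 in TIL B, 8 in CX3CR1+ C and 3 in TIL C, and 1 in each of 3 CX3CR1- libraries. Recurrent 2, joined to TCRBJ01-01, was found in 7 libraries of all 3 experiments with 29 templates in all, and its amino acid CDR3 was coded by 9 different nucleotide rearrangements. Recurrent 3 and Recurrent 4, both joined to TCRBJ02-07, had 10 templates in 6 libraries and 19 in 5. All 4 had 0 or 1 bases trimmed from the V gene and 0 or 1 inserted bases. Recurrent 1 alone was expanded, in CX3CR1+ B at 0.316% and TIL B at 0.331% of productive templates.

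The V genes whose unique share moved most like that of TCRBV01-01 over the 12 libraries were TCRBV26-01 (Pearson r = 0.839), TCRBV05-01 (r = 0.739) and TCRBV31-01 (r = 0.686). The libraries share experiments and the shares sum to a fixed total, so these are descriptions. They rested on TIL A and TIL B: without these, over 10 libraries, r was 0.348, -0.133 and 0.00185.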

How the data were processed

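TCRβ CDR3 regions of genomic DNA were amplified by the authors using ImmunoSEQ (survey level). Sequencing used an Illumina NextSeq instrument, and the ImmunoSEQ platform turned reads into rearrangements. Aligner and caller settings are not given in the sources used here. The labels name the build mm10. The deposited count of each rearrangement is a whole number without normalization, headed as templates or reads by the authors and read as templates, and CDR3 length, deleted and inserted bases (other measures) were used as deposited by the authors, as were gene names and the reading frame. Sequencing of genomic DNA with multiplexed primers can favour some V genes, so shares were compared between libraries and frames and no V gene's share was read as its true frequency.

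Libraries were grouped by their labels. Unique rearrangements and templates were summed per V gene (or J gene) in Python 3.11.15 with pandas 2.3.3, and V or J genes with at least 10 in every group were tested with edgeR 4.0.16 (quasi-likelihood, library totals as offsets, experiment or library as a block, Benjamini-Hochberg adjustment at 0.05). DESeq2 1.42.0 was an alternative. Single values per library were compared by exact permutation within experiments or by sign flips. The edgeR test of V genes and the exact permutation test were run on simulated data with known changes. The experiment code in the labels marks the libraries of 1 experiment and pairs them. Deviations from the group means over 22 V genes correlated with a mean r of 0.171, 0.189 and 0.0646 within A, B and C and -0.0739 between experiments. Of 6 pairs each, 2, 3 and 3 had r above 0.1, and the lowest r was 0.0241, -0.214 and -0.301. Deviations of a group cancel out over the experiments, so the sign between experiments largely follows from that within. The pairing therefore rests on the labels. P-values of sign flips measure the spread between 3 experiments. Those of edgeR with the experiment as a block measure the spread between libraries that is left after group and experiment. Permutations within experiments exchange the 4 libraries of an experiment between groups. Libraries of 1 experiment thus count as units, and p can fall to 0.00926, below the 0.25 of sign flips over 3 experiments. The tests of J genes and of productive against out-of-frame shares had the library as a block. Their p-values measure the spread between 12 libraries, which are not independent within an experiment. Wilson intervals and the limit set by a count of 0 (3 templates) cover counting error only. Named were the 3 V genes of highest correlation, the 3 J genes of largest difference, the largest clone of each CX3CR1+ and TIL library, and the 4 most widely found rearrangements. The gene, lists and tests were chosen with earlier results of these data known. Of all rows, 22 had no V gene name.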

Additional observations from a re-analysis of the deposited data

How the results depend on the processing

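Of 224 alternative values for 23 results, 191 kept their direction and their side of the threshold. For template shares, leaving out the largest TCRBV01-01 clone, which lowers the share by construction where that clone is large, turned CX3CR1+ minus CX3CR1- from 0.25 to -0.26, TIL minus CX3CR1- from 0.57 to -0.58 and TIL minus CX3CR1+ from 0.32 to -0.32 (log2). The downward shift was set by this removal, so these values are a description and no comparison between groups. Leaving out 1 experiment or 1 TIL library (TIL A and TIL C, chosen after seeing the data) gave ranges, for the same contrasts in this order, of -0.015 to 0.40, -0.12 to 0.86 and -0.45 to 0.87. For out-of-frame shares these ranges were -0.088 to 0.0077, -0.16 to 0.10, -0.16 to 0.10 and, for CD27lo minus CD27hi, -0.080 to 0.23, where the value without C was called. DESeq2 gave 0.033 for TIL minus CX3CR1- and 0.051 for TIL minus CX3CR1+. The productive against out-of-frame ratio was -0.041 with DESeq2, -0.045 with TMM factors and -0.019 to 0.039 without 1 experiment, and its group difference was -0.0087 with DESeq2; all these had adjusted p above 0.05. TCRBJ01-02 turned to 0.34 in out-of-frame rearrangements. The count of J genes called fell from 10 to 1 of 3 testable with at least 2 templates and to 4 in out-of-frame rearrangements, where fewer J genes passed the minimum. CDR3 length of CX3CR1+ and TIL minus CX3CR1- was 0.347 nt with at least 2 templates. The difference in TIL sharing by templates was -1.75 points by amino acid CDR3 and -4.96 to 7.37 without 1 experiment. The Simpson difference (0.151 to 0.248) and expanded share (3.995 to 5.86 points) lost their calls without 1 experiment, where the smallest exact permutation p is 0.0556. Counts of V genes called in TIL minus CX3CR1- ran from 0 (without TIL A) to 8 for template shares, against 4, and from 2 to 8 (without TIL C) for unique shares, against 3. Without the replicate block, which stands for the experiment, TIL minus CX3CR1- was 0.10 for unique and 0.64 for template shares, and no call on TCRBV01-01 changed. With all libraries brought to the template depth of the shallowest, the unique-share difference was 0.14 for TIL minus CX3CR1- and 0.14 for TIL minus CX3CR1+. Neither was called in edgeR (adjusted p = 0.395 and 0.602). The causes of the changes were not tested.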

Other observations

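Among rearrangements with a D gene named, TCRBD01-01 was used in 58.8% ± 4.60 of productive TCRBV01-01 rearrangements and 56.3% ± 1.49 of the rest (SD, n = 12 libraries), higher in 10 of 12 libraries. In out-of-frame rearrangements it was 65.0% ± 7.76 against 57.9% ± 4.73, higher in 11 of 12. The libraries in which it was lower were all TILs.

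Of 9139 distinct productive TCRBV01-01 nucleotide rearrangements, 275 (3.01%) were found in more than 1 experiment and 38 (0.416%) in all 3, against 2.51% and 0.252% of those with other V genes. For CDR3 amino acid sequences it was 8.0% and 1.56% against 7.51% and 1.28%. These shares depend on depth, which is the same for both, and were not tested.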
